A study of Mus musculus with 6 samples.

Results

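The genes described here encode the initiation and elongation factors of cytosolic translation and the genes named after them. They are the protein-coding genes of the nuclear chromosomes whose RefSeq symbol on the mouse assembly GRCm38 starts with Eif or Eef. This name rule gave 72 of 21887 genes, and it was set with earlier results of these data known. The measurement is a list of 3292 target peaks, stretches of RNA recovered with the Argonaute protein AGO2 from mouse embryonic stem cells, and 46 of these peaks had their midpoint within the span of an Eif or Eef gene. Of the 72 genes, 25 (34.7%, exact 95% Clopper-Pearson interval 23.9 to 46.9) had at least 1 peak. Among the 21815 other nuclear protein-coding genes, the background, 1792 (8.21%, interval 7.85 to 8.59) had one.

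The study's libraries came from embryonic stem cells of the mouse with the genotype Spy3-Ago2, named E14 in the library names and grown in serum with LIF on gelatin. The target group comprised 2 libraries of RNA isolated through Spy3-AGO2 on a SpyCatcher3 resin, the input group 2 libraries from whole lysate, and 2 further libraries held the miRNAs bound to AGO2. Every library carried the Spy3-Ago2 genotype, and no line without the tag was analysed here. The labels name neither the clone nor whether replicates were separate cultures. A single peak list stands for the whole series and gives no value per library, so no replicate spread, depth or test can be attached to any peak. All comparisons below are descriptions, and the intervals cover counting error only, as if genes or peaks were independent. As a check of the label, the miR-290/miR-295 cluster, which defines mouse embryonic stem cells, made up 39.4% and 38.8% of the counts of the miRNA libraries. Peaks lay in 7 of 10 stem cell marker genes (Sox2, Nanog, Klf4, Zfp42, Esrrb, Tdgf1 and Tfcp2l1). The stem cell markers Pou5f1, Dppa5a and Utf1 had none. Of the fibroblast and neural marker genes, 0 of 6 and 0 of 4 had a peak. With a background of 8.21%, a count of 0 in lists this short says nothing about those cell types. A gene without a peak is not thereby shown to be silent, since RNA levels were not analysed here.

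Translation initiation loads the initiator tRNA on the small ribosomal subunit with eIF2, recruits that subunit to the capped mRNA through eIF4F and eIF3, scans for the start codon and joins the large subunit. Elongation factors then deliver aminoacyl-tRNAs and move the ribosome along. AGO2, guided by a miRNA, represses mRNAs by recruiting factors that remove the poly(A) tail and curb initiation, so translation factors are both machinery that this pathway acts on and possible targets of it. Pairing to a target begins at the seed, bases 2 to 8 of the miRNA. The seeds of the 5 miRNAs most abundant in AGO2 here are shown in capitals, with mature sequences from RefSeq on GRCm38.p6, because they are the main guides that the AGO2 of these cells carried.
miR-290a-5p: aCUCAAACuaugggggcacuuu
miR-92a-3p: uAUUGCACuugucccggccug
miR-182-5p: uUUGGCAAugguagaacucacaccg
miR-19b-3p: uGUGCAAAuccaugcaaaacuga
miR-16-5p: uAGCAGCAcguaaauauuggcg
These 5 have 5 different seeds. The sequences under the peaks were not analysed here, so no peak below is assigned to a miRNA.

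The counts were split by the roles of the genes. Of the 52 genes that encode a factor or a factor subunit, 23 (44.2%, interval 30.5 to 58.7) had a peak, against 2 of the 20 regulators, modifying enzymes and other genes (10.0%, interval 1.23 to 31.7). The latter share is close to the background of 8.21%, and the intervals of the 2 classes overlap. Cap-binding and helicase factors stood highest with 7 of 11 genes and 19 of the 46 peaks. Scanning and subunit joining factors followed with 5 of 9 genes and 5 peaks, elongation factors with 4 of 9 genes and 10 peaks, and eIF3 subunits with 6 of 14 genes and 9 peaks. The subunits of eIF2 and its exchange factor eIF2B had 1 of 9 genes with 1 peak. Each of these 5 groups holds few genes and their intervals overlap, and the groups were drawn up with the values in view.

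**Figure D1:**
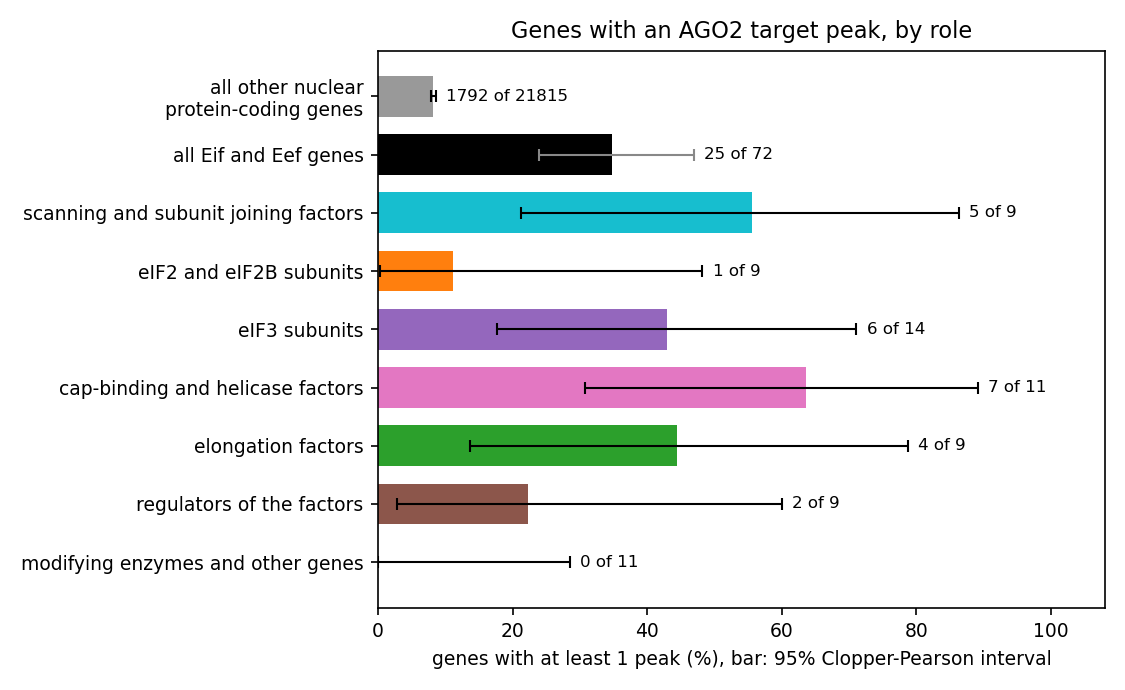
Percent of genes with at least 1 target peak (x axis) for all other nuclear protein-coding genes, for all Eif and Eef genes and for 7 role groups of them, with 95% Clopper-Pearson intervals and the number of genes beside each bar. The bar of all Eif and Eef genes reaches 34.7% against 8.21% for the other genes, and the group of modifying enzymes and other genes is at 0 of 11.

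Gene span was compared because peaks were assigned by it. Among the other genes, a peak was found in 3.82% of those under 10000 nt, in 7.52% of those of 10000 to under 30000 nt and in 13.4% of those of 30000 nt or more. The Eif and Eef genes did not follow that order. A peak was found in 8 of the 23 short genes (34.8%, interval 16.4 to 57.3), in 14 of the 31 of middle span (45.2%, interval 27.3 to 64.0) and in 3 of the 18 long ones (16.7%, interval 3.58 to 41.4). The intervals of the short and the middle class lay above the background of their class, and that of the long class included it. The median span was 16351 nt for the Eif and Eef genes and 17169 nt for the other genes. Among genes with a peak it was 17444 nt (interval 8653 to 23401) against 36299.5 nt (interval 33520 to 39457), so the Eif and Eef genes with peaks were more compact than the other genes with peaks.

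Once a gene had a peak, the number of peaks was close to that of other genes. Of the 25 Eif and Eef genes, 16 had exactly 1 peak and 9 (36.0%) had at least 2, against a background of 34.6% of other genes with a peak. The mean was 1.84 ± 1.40 peaks per gene (SD over 25 genes) against 1.77 ± 1.63 over 1792 genes. At the upper end, 3 of the 25 genes (12.0%, interval 2.55 to 31.2) had 5 peaks, the number reached or exceeded by 5.08% of the other genes with a peak. Scaled to span, the median was 0.103 peaks per 1000 nt (interval 0.0573 to 0.170) against 0.0391 (interval 0.0364 to 0.0423). This density carries the difference in span, 17444 nt against 36299.5 nt at the median, and was not compared within span classes.

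The cap-binding and helicase group held 2 of the 3 genes with 5 peaks. Eif4a1 (NCBI Gene 13681), the DEAD-box helicase of eIF4F that unwinds the mRNA leader, had 5 peaks in a span of 5488 nt on chromosome 11 (69666936 to 69672423, minus strand). Their midpoints stood at 32.4%, 41.4%, 67.6%, 75.8% and 95.6% of the way from the upstream to the downstream end, and their widths were 61, 41, 61, 140 and 52 nt. The series thus ran from well inside the gene to within 242 nt of its end. Its close paralog Eif4a2 had none. With 0.911 peaks per 1000 nt, Eif4a1 was among 46 nuclear protein-coding genes with at least that density, of 1817 with a peak.

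Eif4g2 (NCBI Gene 13690) encodes a relative of the eIF4G scaffold that lacks the region binding the cap-binding protein eIF4E and serves cap-independent initiation. It also had 5 peaks, in a span of 15046 nt on chromosome 7 (111067985 to 111083030). All of them lay in the first 50% of the gene, at 18.3%, 31.4%, 41.5%, 45.3% and 49.4%, and the one closest to the downstream end was still 7619 nt from it. Among the 91 other genes with at least 5 peaks, 0 had every peak in the first 50% of the span. This cut was chosen after the positions were seen. The peak at 45.3% (111076189 to 111076227) had the same highest coordinate as an annotated snoRNA gene, LOC115486847 (111076060 to 111076227), and lay wholly inside it. It was the only 1 of the 46 peaks that overlapped an annotated noncoding gene or pseudogene. For this peak, RNA of the snoRNA and of Eif4g2 cannot be told apart, and the strand of the snoRNA gene was not checked.

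Eif4b (NCBI Gene 75705), which stimulates the helicase, showed the opposite arrangement. Its 4 peaks, 44, 112, 79 and 60 nt wide, crowded into the end of a span of 23401 nt on chromosome 15 (102073773 to 102097173), at 90.8%, 92.7%, 95.5% and 96.2%. Their midpoints lay within 1255 nt of each other and between 892 and 2147 nt from the downstream end. Eif4h, which shares this helper role, had a single peak of 59 nt at 99.8%, with its midpoint 43 nt from the end.

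The eIF4G scaffolds, which bridge the cap-binding protein and eIF3, differed among themselves in position. Eif4g1 had peaks of 30 and 49 nt at 13.1% and 41.0% of its span. Eif4g3 had 1 peak of 63 nt at 98.3%, 3637 nt from the end of a span of 215308 nt, the longest of the 72 genes. Together with Eif4g2, all 3 members of this family had a peak. Among the cap-binding proteins themselves, Eif4e, Eif4e1b and Eif4e3 had none, whereas Eif4e2, a homolog tied to translational repression, had 1 peak of 41 nt at 65.0%.

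**Figure D2:**
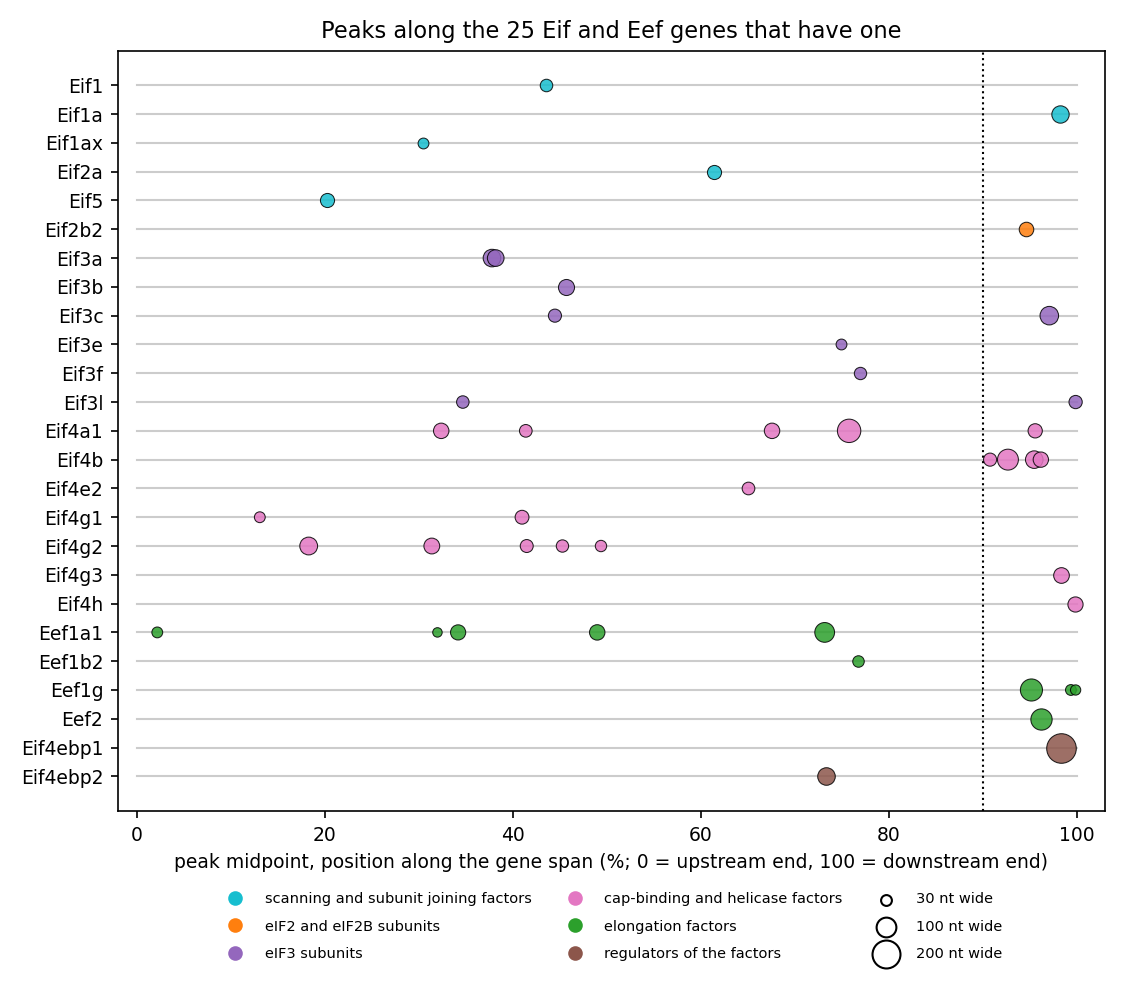
Each row is 1 of the 25 Eif and Eef genes with a peak, ordered by role. The x axis is the position of the peak midpoint along the gene span in percent, 0 being the upstream end, circle area grows with peak width, and the dotted line marks 90%. The 4 peaks of Eif4b lie right of the line, the 5 peaks of Eif4g2 all lie below 50%, and no circle lies between 80% and 90%.

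Elongation factors gave the densest gene of the set. Eef1a1 (NCBI Gene 13627), which delivers aminoacyl-tRNA to the ribosome and is one of the most abundant proteins of a cell, had 5 peaks in a span of 3272 nt on chromosome 9 (78478453 to 78481724, minus strand). They stood at 2.19%, 32.0%, 34.2%, 49.0% and 73.2%, with widths of 30, 23, 59, 61 and 100 nt. The first of them, with its midpoint 71 nt from the upstream end, was the only peak of the 46 in the first 10% of a gene. None of the 5 lay in the last 10%. At 1.53 peaks per 1000 nt, Eef1a1 was among the 28 densest nuclear protein-coding genes, and 8.34% of its span lay under a peak. The tissue-restricted paralog Eef1a2 had none. For Eef1a1 and other genes with close copies, the sources used here do not say how reads matching several places were treated. The annotation lists 14 pseudogenes under Eif and Eef symbols, and none of them held a peak.

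The exchange factor complex that recharges eEF1A also carried peaks. Eef1g (NCBI Gene 67160) had 3 peaks on chromosome 19, at 95.2%, 99.4% and 99.9% of its span, the widest of them 125 nt and the outermost with its midpoint 12 nt from the annotated end. The last 2 were separated by only 26 nt. Eef1b2 had 1 peak of 34 nt at 76.7%, and Eef1d had none. Eef2, the translocase that moves the ribosome by a codon, had 1 wide peak of 116 nt at 96.2%, 221 nt from the end. Eefsec, the selenocysteine-specific factor, and the hypusine-carrying Eif5a and Eif5a2 had none.

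**Figure D3:**
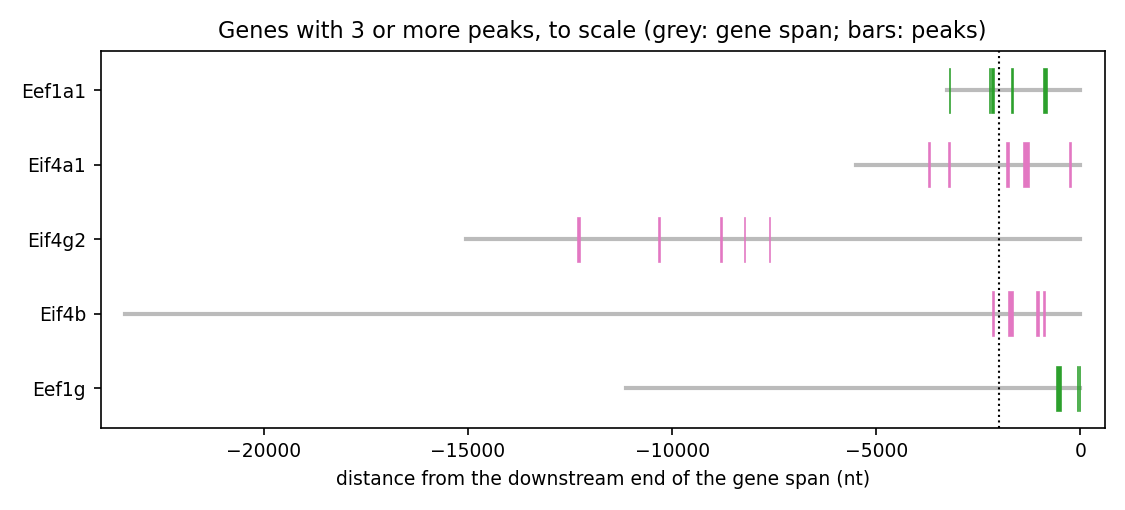
The 5 Eif and Eef genes with at least 3 peaks, drawn to scale. The x axis is the distance from the downstream end of the gene span in nt, grey lines are gene spans, coloured bars are peaks and the dotted line marks 2000 nt. The peaks of Eef1a1 and Eif4a1 are spread over short genes, those of Eif4g2 stay beyond 7619 nt, and those of Eif4b and Eef1g sit at the end.

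The eIF3 complex, the largest initiation factor, had peaks in 6 of its 14 genes. Eif3a had a pair of peaks, 79 and 71 nt wide and 48 nt apart, at 37.8% and 38.2% of the span. Eif3c combined a peak of 44 nt at 44.5% with a wider one of 88 nt at 97.1%, and Eif3l a peak of 40 nt at 34.7% with one of 45 nt at 99.9%, 22 nt from the end. Eif3b had 1 peak at 45.7%, Eif3e 1 at 74.9% and Eif3f 1 at 77.0%. In the last 10% of a gene lay 2 of the 9 peaks (22.2%, interval 2.81 to 60.0). This interval includes the 41.1% of peaks in other genes. Eif3d, Eif3g, Eif3h, Eif3i, Eif3j1, Eif3j2, Eif3k and Eif3m had none.

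Among the factors that find the start codon and join the subunits, each gene with a peak had a single peak. Eif1, which guards start codon choice, had one of 40 nt at 43.6% of a span of only 2151 nt, and its paralog Eif1b had none. The related pair Eif1a on chromosome 18 and Eif1ax on chromosome X each had 1, at 98.2% and 30.5%. Eif5, which triggers GTP hydrolysis on eIF2, had 1 at 20.3%, and Eif2a, described as an alternative carrier of initiator tRNA, 1 at 61.4%. Eif5b, Eif6 and Eif2d had none. In the eIF2 and eIF2B group the only peak, 54 nt wide at 94.6%, was in Eif2b2, and Eif2s1, Eif2s2, Eif2s3x, Eif2s3y, Eif2b1, Eif2b3, Eif2b4 and Eif2b5 had none.

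Of the regulators, the inhibitors that sequester the cap-binding protein had peaks. Eif4ebp1 had the widest peak of all 46, 224 nt, at 98.3% of its span and 265 nt from the end. Eif4ebp2 had one of 79 nt at 73.3%, and Eif4ebp3 none. None of the 4 kinases that phosphorylate eIF2 (Eif2ak1, Eif2ak2, Eif2ak3 and Eif2ak4) had a peak, nor did the eEF2 kinase Eef2k or the eIF4E transporter Eif4enif1. The enzymes that methylate elongation factors (Eef1akmt1, Eef1akmt2, Eef1akmt3, Eef1akmt4, its read-through Eef1akmt4-ece2, Eef1aknmt and Eef2kmt) had none, and neither had Eef1e1, Eif1ad, Eif4a3 of the exon junction complex or its copy Eif4a3l1.

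Position along the gene was measured in percent of the span, from upstream to downstream as the strand of the peak runs. All 35 peaks in genes whose strand is given by the RefSeq promoter table were on the strand of the gene, and in all 25 genes every peak was on the same strand. The median position was 66.3% (interval 43.6 to 90.8) for the 46 peaks and 83.2% (interval 81.6 to 84.3) for the 3171 peaks in other genes. In these 3171 a peak within several genes counts once for each, and 3024 were in exactly 1 gene. The strand of these peaks was not matched to that of the gene. The first 50% of the span held 21 peaks (45.7%, interval 30.9 to 61.0) against a background of 22.8%. This cut was chosen after the positions were seen, and peaks of the same gene are not independent. By span class, the first 50% held 13 of 27 peaks in genes of middle span (48.1%, interval 28.7 to 68.1) against 18.7%. In short genes it held 8 of 16 (interval 24.7 to 75.3) against 29.4%, which lies within the interval. Long genes held 0 of 3, against 22.8%. The share rested in part on the genes with 5 peaks. Without Eef1a1, Eif4a1 and Eif4g2 the share fell to 32.3%, while the background of 22.8% kept its genes with 5 or more peaks. Counted once per gene, by the median position of its peaks, it was 32.0% of 25 genes against 22.5% of other genes with a peak. No interval was computed for either share, so an excess per gene is not shown.

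At the downstream end the difference was smaller. The last 10% of the span held 16 of the 46 peaks (34.8%, interval 21.4 to 50.2), against 41.1% of the peaks in other genes, which lies within the interval. By span class, it held 3 of 16 peaks in short genes, 12 of 27 in genes of middle span (44.4%) and 1 of 3 in long genes, against 31.1%, 42.0% and 43.2% elsewhere. Within 2000 nt of the end lay 21 peaks (45.7%, interval 30.9 to 61.0), against 35.5%, also within it. Relative and absolute distance thus gave opposite orders, and neither difference exceeds counting error. Of the 25 genes, 11 had a peak in the last 10%, against 895 of the 1792 other genes with a peak. Within 2000 nt of the end, 14 of the 25 genes had one, a count for which no background was computed. The stretch from 80% to under 90% held 0 of the 46 peaks, an interval of up to 7.71%, against 12.6% of peaks elsewhere. This stretch was singled out after the positions were seen. The 9 genes with several peaks split into 2 with every peak in the last 10% (Eif4b and Eef1g), 3 with every peak in the first 50% (Eif3a, Eif4g1 and Eif4g2) and 4 with peaks on either side (Eef1a1, Eif3c, Eif3l and Eif4a1). Among other genes with several peaks, 21.0% had all in the last 10% and 8.39% all in the first 50%. No interval was computed for these splits of 9 genes. None of the 3 genes with 5 peaks had every peak in the last 10%, against 4.40% of other genes with at least 5. At so low a background, a count of 0 among 3 genes carries no information.

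**Figure D4:**
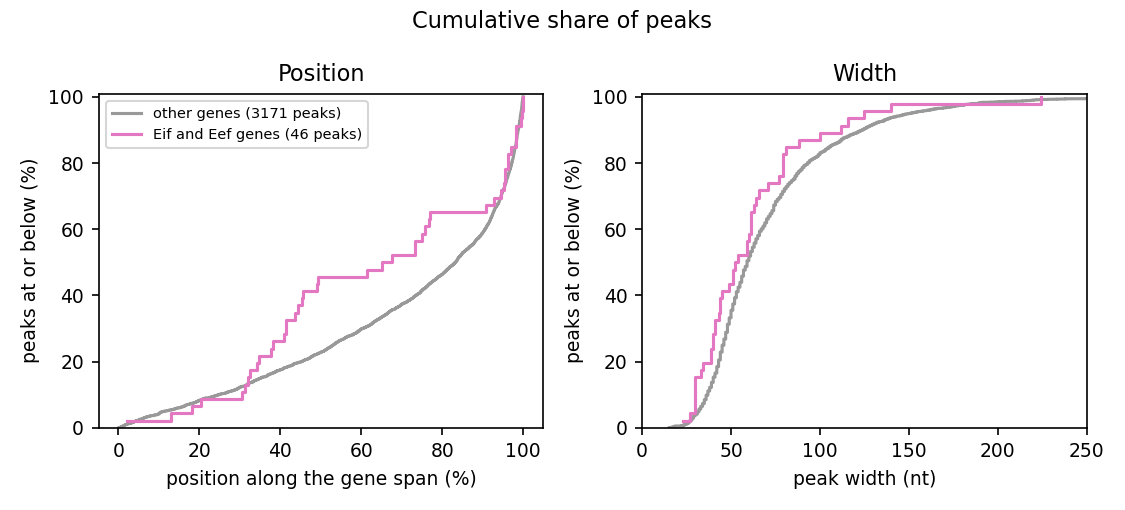
Cumulative percent of peaks (y axis) by position along the gene span in percent (left) and by width in nt (right, drawn up to 250 nt). The curves hold 46 peaks in Eif and Eef genes and 3171 peaks in other genes, counted once per gene. The Eif and Eef curve for position runs above the other curve from about 32.0% to at least 90.8%, with medians of 66.3% and 83.2%. The width curves have medians of 53.0 and 59.0 nt.

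Peak width was similar to that elsewhere. The median was 53.0 nt (interval 43.0 to 63.0), with a range of 23 to 224 nt, against 59.0 nt (interval 58.0 to 60.0) in other genes. Peaks of 100 nt or more made up 6 of 46 (13.0%, interval 4.94 to 26.3) against 17.5%, and peaks under 50 nt 20 of 46 (43.5%, interval 28.9 to 58.9) against 33.2%. The 6 wide peaks belonged to 6 genes, Eif4ebp1, Eif4a1, Eef1g, Eef2, Eif4b and Eef1a1. All 6 lay within 2000 nt of the downstream end (interval 54.1 to 100%), compared with 15 of the 40 narrower peaks (37.5%, interval 22.7 to 54.2). In other genes the corresponding shares were 44.8% of wide and 33.6% of narrower peaks. This relation was looked for after the values were seen. Peaks near the end had a median width of 61.0 nt and the remaining ones 44.0 nt, against 64.0 and 57.0 nt in other genes. The 7 peaks of at most 30 nt were in Eef1a1, Eef1g, Eif1ax, Eif3e and Eif4g1, and the share of such peaks in other genes was not computed.

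Neighbouring peaks of the same gene were separated by a median of 559 nt over 21 pairs, with a range of 26 to 12461 nt, against 1484 nt over 1375 pairs in other genes. Gaps under 50 nt occurred in 3 of the 21 pairs, in Eef1a1, Eef1g and Eif3a, against 213 of the 1375 pairs in other genes. Gaps under 200 nt made up 19.0% of pairs against 25.2%, so very close pairs were not more frequent than elsewhere. The peaks carry numbers that rise with position on each of the 43 combinations of chromosome and strand and reach 30438, and most numbers are not in the list. Between the first and the last listed peak of the 9 genes with several, the numbering ran over 97 numbers, of which 30 (30.9%) were listed, against 32.1% in other genes with several peaks. Taken per gene, the median share listed was 27.8% against 50%, and the numbering had no gap in 1 of 9 genes against 144 of 618. In Eif4a1 and in Eif4g2 the 5 listed peaks spanned 18 numbers each, and in Eef1a1 12. What the missing numbers stand for is not stated in the labels.

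Other genes of translation were taken from a list of 67, of which 18 had a peak (26.9%, interval 16.8 to 39.1), 35 peaks in all, against the background of 8.21%. Partners of the poly(A) tail and the cap had 6 of 12. Pabpc1, the poly(A)-binding protein that joins eIF4G, had 5 peaks, Ddx3x, Larp1 and Larp4 had 3 each, and Paip1 and Cyfip1 1 each. Of the cytosolic tRNA synthetases, which charge tRNAs with amino acids, 8 of 20 had a peak, with 3 in Aars, 2 each in Cars and Vars and 1 each in Gars, Iars, Sars, Tars and Yars. Signalling genes had 2 of 12, namely Ppp1r15b, a subunit of the phosphatase that reactivates eIF2, with 4 peaks, and Atf4, the transcription factor induced when eIF2 is phosphorylated, with 1. Etf1, the release factor, was the only one of 9 genes of release, recycling and reinitiation, Gfm2 the only one of 6 mitochondrial factors, and the 8 modification genes had 0. The intervals of these last 4 lists include the background.

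The ribosomal protein genes are the part of the translation machinery nearest to these factors. Of 81 such genes, named Rpl or Rps with a number, 52 had a peak (64.2%, interval 52.8 to 74.6), an interval that lies above that of the Eif and Eef genes. Of their 112 peaks, 45.5% lay in the first 50% of the span (interval 36.1 to 55.2) and 12.5% in the last 10% (interval 7.01 to 20.1). In these short genes 63.4% (interval 53.8 to 72.3) were nevertheless within 2000 nt of the downstream end, against 35.5% of the peaks in other genes than Eif and Eef. Their median width was 57.5 nt, within the interval of the Eif and Eef peaks. Peaks of 100 nt or more were 4 of 112. Of the 112, 111 lay in genes under 10000 nt, the class that held 16 of the 46 Eif and Eef peaks.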

How the data were processed

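The authors deposited 1 list of target peaks for the series with position and strand, on the mm10 build per the labels. Its score column was 0 for every deposited peak and was not used. For each miRNA library the authors deposited raw counts per mature miRNA, totalling 12562727 and 22908172. Per the submitters' processing notes, the tools were STAR 2.5.2a, Bowtie2 2.4.2, cutadapt 2.10, UMI-tools, deepTools 3.1.3 and DESeq2 1.36.0, with no role stated. How peaks were called, and whether input was used for it, was not given in the sources used here.

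Peaks were assigned by midpoint to spans of nuclear protein-coding genes (RefSeq, GRCm38.p6, the assembly of mm10). A peak within several genes counted once for each, and all 46 peaks in Eif and Eef genes lay in exactly 1. Coordinates count from 1. Shares have exact Clopper-Pearson intervals and medians order-statistic binomial intervals, at 95%. Values were computed with pandas 2.3.3, scipy 1.17.1 and numpy 2.4.6 under Python 3.11.15, and drawn with matplotlib 3.10.9. Tested on simulated peaks in 200 genes whose span meets no other protein-coding gene, the step assigned 400 of 400 to the right gene. Overlapping genes were left out of that simulation, so it says nothing about them.

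Members and lists were chosen with earlier results of these data known. Every Eif and Eef gene and every listed translation gene with a peak is named. Stem cell markers were named after their values were seen. Exons, peak sequences and protein sequences were not used, so the planned seed matches and protein identities were not computed.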

Additional observations from a re-analysis of the deposited data

How the results depend on the processing

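Of 42 alternatives computed, 38 stayed within the 95% interval of the value they vary or, for counts of peaks, within 1.5 times of it. Some of these could not have left those limits. All 46 peaks lay in exactly 1 gene, and leaving out a gene with 5 peaks could only bring the count to 41. The tally therefore says little about how firm the results are. The share of Eif and Eef genes with a peak was 34.7% under each way of assigning peaks and 44.2% for factor and subunit genes alone. The other 4 concern the background, where the share of other genes with a peak was 7.75% with peaks in exactly 1 gene, 8.70% with spans lengthened by 1000 nt, 9.52% without olfactory, vomeronasal, taste and predicted genes, and 7.34% for spans between the quartiles of the Eif and Eef genes, against 8.21%. The share of Eif and Eef peaks in the last 10% ranged from 31.4% to 48.4%, so its order against the 41.1% elsewhere is not settled. It was 48.4% without the genes with 5 peaks, a setting chosen after seeing the data, as were all settings for the first 50% of the span, which gave 32.0% to 47.7%. Seed matches were not run. No paired analysis was possible because the peak list carries no value per replicate. The depth of the target and input libraries is not known from the files.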
